A study of Mus musculus with 6 samples.

Results

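The enzymes of serine, one-carbon, glutamine and polyamine metabolism were followed in mouse mature adipocytes (AC) and dedifferentiated fat (DFAT) cells. A gene was a member if it was on a list of 33 enzymes of these pathways, chosen by function, and if at least 1 probe set was annotated to its symbol alone. Of the 33 genes, 28 had such a probe set, with 54 probe sets in all, among 18193 genes and 45037 probe sets on the array. Amt, Mat2a, Pycr1, Amd1 and Sms had no probe set annotated to them alone. The study compared gene expression profiles in a search for factors able to turn DFAT cells into hepatocytes. Its deposited arrays were 3 of AC, which are adipocytes isolated from mouse fat tissue, and 3 of DFAT cells, a line grown out of mature fat cells that came from GFP transgenic mice, by ceiling culture, in which floating fat cells attach to the upper wall of a filled flask and lose their lipid. DFAT cells were taken at semiconfluence. Neither group was treated, the sources used here give no age for the mice of these arrays, and whether the AC mice carried GFP is not stated. The labels do not tie the 3 arrays within AC or DFAT to different animals or cultures, so p-values measure the spread between these arrays only, and if the 3 DFAT arrays came from 1 line, not the spread between lines.

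Serine is built from a glycolytic intermediate by Phgdh, Psat1 and Psph, and the hydroxymethyltransferases Shmt1 and Shmt2 pass one of its carbons to folate. Folate enzymes in the cytosol and in mitochondria carry that carbon toward nucleotides and, through methionine, toward methyl groups. Glutamine and glutamate exchange nitrogen through aminotransferases and lead to proline, to arginine and, by way of ornithine, to the polyamines, and white fat is known as a tissue that releases glutamine and alanine.

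Expression was measured on the Affymetrix GeneChip Mouse Genome array as log2 values, with array medians of 4.92 to 5.11, and the precision is limited by the 3 arrays per group. The labels were set against marker lists. Of 13 white adipocyte markers, all 13 were lower in DFAT cells, with mean log2 levels of 12.78 to 13.002 on the AC arrays and 5.80 to 5.87 on the DFAT arrays. Stromal markers were higher in DFAT cells for 9 of 10, and cell cycle markers for 9 of 9, the latter with mean levels of 4.29 to 4.79 in AC and 10.69 to 10.79 in DFAT cells. The AC arrays also carried markers of other cells, since 12 of 12 endothelial, 9 of 11 macrophage and 9 of 10 epithelial markers were higher there. AC replicate 1 stood apart from replicates 2 and 3, with an endothelial mean of 9.74 against 7.995 and 7.83, a macrophage mean of 6.74 against 8.23 and 8.22 and an adipocyte mean of 12.78 against 13.002 and 12.96. The part of the cell cycle, endothelial and macrophage markers in the results that follow was not tested. In bulk RNA, fewer cells of a type and less RNA per cell cannot be told apart. A probe set was called above background on an array if it passed a level, between 5.67 and 5.94, taken from genes of tissues unrelated to fat.

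Most of the 28 genes differed between AC and DFAT cells, in both directions. Higher in DFAT cells were 14 and lower were 10, while 4 (Phgdh, Shmt1, Mat2b and Oat) did not pass (limma, Benjamini-Hochberg adjusted over 45037 probe sets, threshold 0.05, 1 representative probe set per gene). Those 24 calls were 85.7% of the members, whereas 46.4% of all 18193 genes were called, 22.6% as higher and 23.8% as lower. Among genes above background on at least 1 array, 22 of 26 members (84.6%) were called, 13 higher and 9 lower, and of 11406 genes 64.3% were, 34.4% higher and 29.9% lower. The 3 AC and the 3 DFAT values did not overlap in any of the 24 called members, and 46.3% of all genes were called without overlap. Differences of at least 4-fold were found in 5 members that rose, Mthfd2, Mthfd1l, Shmt2, Got1 and Ahcy, and in 4 that fell, Gpt, Glul, Arg2 and Arg1, whereas 4.78% and 6.65% of all genes were called at that size as higher and as lower. Arg2 and Arg1 were below background in DFAT cells and reached that size only on the measured values, since against the background level they differed by -0.34 and -0.29. The median DFAT minus AC difference was 0.41 over the members and -0.10 over all genes, and the members ranged from -4.76 (Gpt) to 4.73 (Mthfd2).

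**Figure D1:**
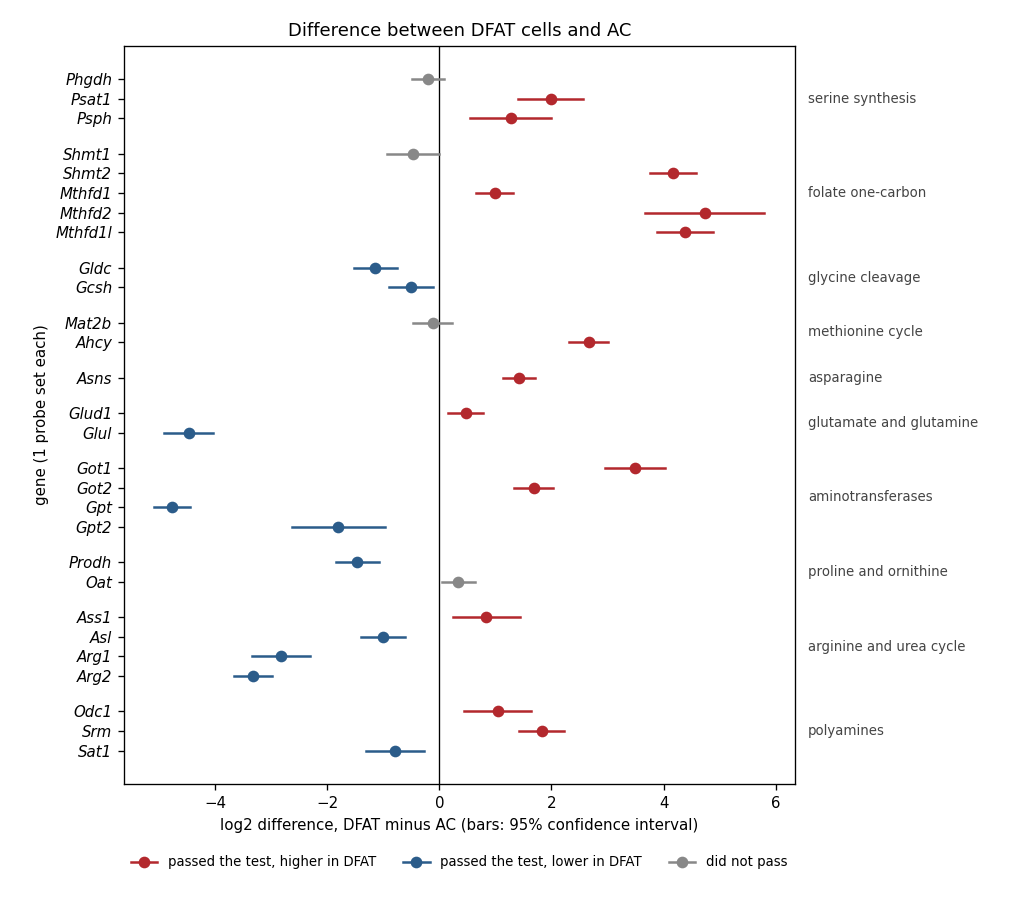
DFAT minus AC difference of each measured member on the log2 scale, with its 95% confidence interval from limma, grouped by pathway. The folate enzymes Mthfd2, Mthfd1l and Shmt2 lie at the right, above 4, and Glul and Gpt at the left, below -4.

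The spread within the groups was unequal. The median SD over the members was 0.27 in AC and 0.07 in DFAT cells, and it was larger in AC for 23 of 28. AC replicate 1 lay below both other AC arrays in 21 members and above both in 5, and it was 1 or more log2 units under their mean in Psph, Mthfd2 and Gpt2. Without AC replicate 1, all 28 members had the same call. Another centring of the arrays moved every difference by one amount, +0.13 with array medians, -0.44 with 13 reference genes and +0.46 with the hybridization controls. Members then split into 15 higher and 8 lower, 12 higher and 13 lower, and 15 higher and 6 lower. Of the 24 called members, 18 kept their call under every scaling and the others were Gcsh, Sat1, Asl, Gldc, Glud1 and Ass1.

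**Figure D2:**
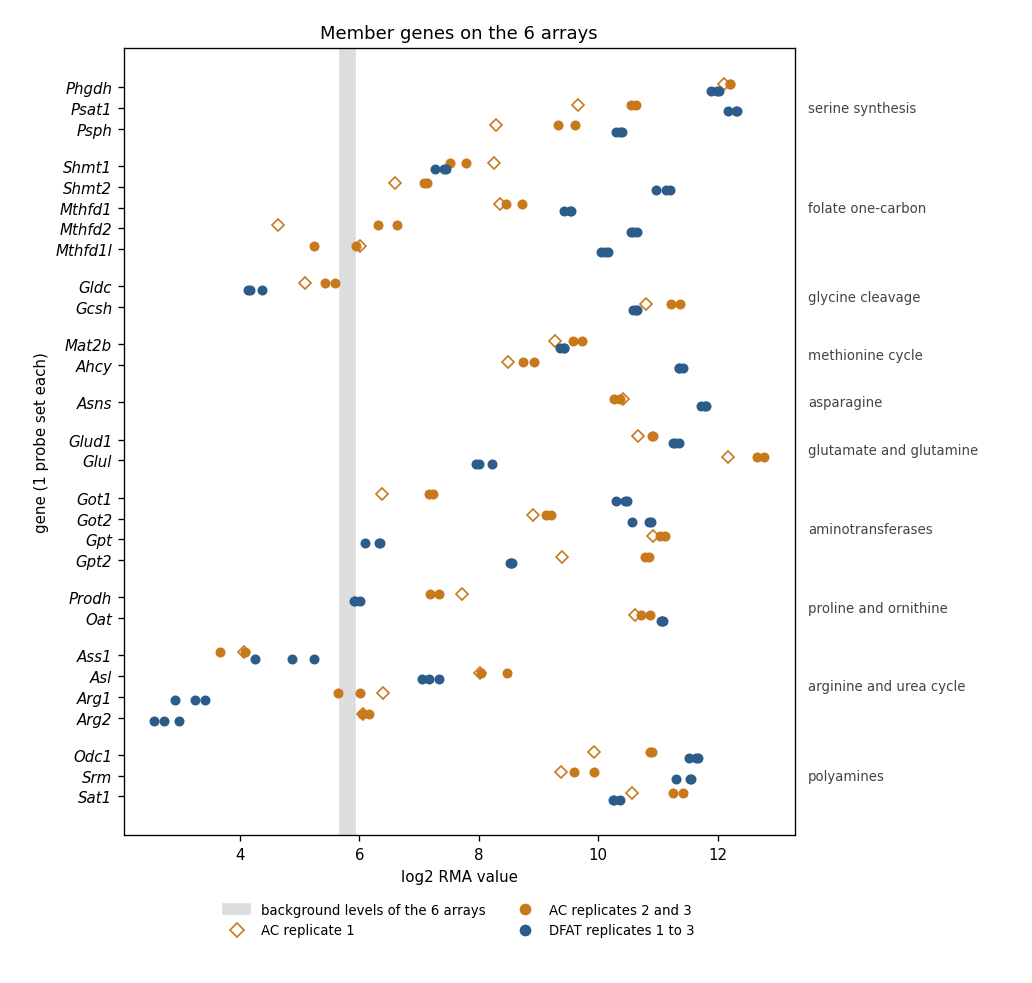
Log2 level of the representative probe set of each measured member on each of the 3 AC and 3 DFAT arrays, with AC replicate 1 as an open diamond and the background levels as a grey band. Levels of different genes are not comparable, and the DFAT points lie closer together than the AC points in 23 of 28 genes.

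In the serine pathway, the second and last steps rose and the first did not. Psat1, the aminotransferase of the pathway, had log2 levels of 9.67, 10.63 and 10.54 in AC and of 12.18, 12.30 and 12.32 in DFAT cells. Every DFAT array was above every AC array, and Psat1 rose 3.96-fold (log2 difference 1.98, 95% interval 1.40 to 2.57, limma adjusted p = 0.000431). Psph, the phosphatase that releases serine, had levels of 8.29, 9.33 and 9.62 in AC and of 10.29, 10.36 and 10.40 in DFAT cells. AC replicate 1 was the lowest array, and the gene rose 2.42-fold (log2 difference 1.27, limma adjusted p = 0.0133). Phgdh, the dehydrogenase that opens the pathway, was at 12.11, 12.20 and 12.20 in AC and at 11.88, 11.99 and 12.02 in DFAT cells. Its groups did not overlap, but the difference of -0.21 (95% interval -0.49 to 0.08) did not pass (limma adjusted p = 0.231), and it was 0.26 with the arrays centred on the hybridization controls. All 4 Phgdh probe sets are of a type (_x_at) whose probes may also match other transcripts, and 1 of the others passed as lower (log2 difference -0.43, limma adjusted p = 0.0396).

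Folate enzymes held the largest rises, and these were in the mitochondrial enzymes. Mthfd2, the mitochondrial methylenetetrahydrofolate dehydrogenase, had levels of 4.64, 6.31 and 6.64 in AC and of 10.58, 10.66 and 10.56 in DFAT cells. AC replicate 1 was below background, the DFAT arrays lay close together, and the gene rose 26.6-fold (log2 difference 4.73, 95% interval 3.67 to 5.79, limma adjusted p = 9.85e-05), by 4.12 without that array. Mthfd1l, the mitochondrial synthetase that releases formate, was at 6.01, 5.23 and 5.94 in AC and at 10.04, 10.16 and 10.12 in DFAT cells, 20.8-fold higher (log2 difference 4.38, limma adjusted p = 2.19e-06). AC replicate 2 was below background for Mthfd1l, and with such values set to the background level the difference was 4.22. Shmt2, the mitochondrial hydroxymethyltransferase, was at 6.60, 7.08 and 7.14 in AC and at 10.97, 11.14 and 11.20 in DFAT cells. That was an 18.0-fold rise (log2 difference 4.17, limma adjusted p = 1.04e-06) on a probe set of the _x_at type. The other 3 probe sets of Shmt2 were higher by 3.14, 2.82 and 0.62. The value of 3.14 (8.82-fold) came from the only Shmt2 probe set without that suffix.

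The cytosolic partners moved less. Mthfd1, the cytosolic enzyme of 3 activities, rose 1.98-fold, from 8.36, 8.46 and 8.71 in AC to 9.43, 9.53 and 9.54 in DFAT cells (log2 difference 0.99, limma adjusted p = 0.000864). Shmt1, the cytosolic hydroxymethyltransferase, was at 8.25, 7.51 and 7.78 in AC and at 7.41, 7.27 and 7.46 in DFAT cells. Its groups did not overlap, and the difference of -0.47 (95% interval -0.93 to -0.01) did not pass (limma adjusted p = 0.101), while it was -0.64 without AC replicate 2 (adjusted p = 0.0358) and -0.27 without AC replicate 1 (adjusted p = 0.144). The other 3 probe sets of Shmt1 had differences of 0.11, 0.16 and 0.19, the other direction, and none passed.

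**Figure D3:**
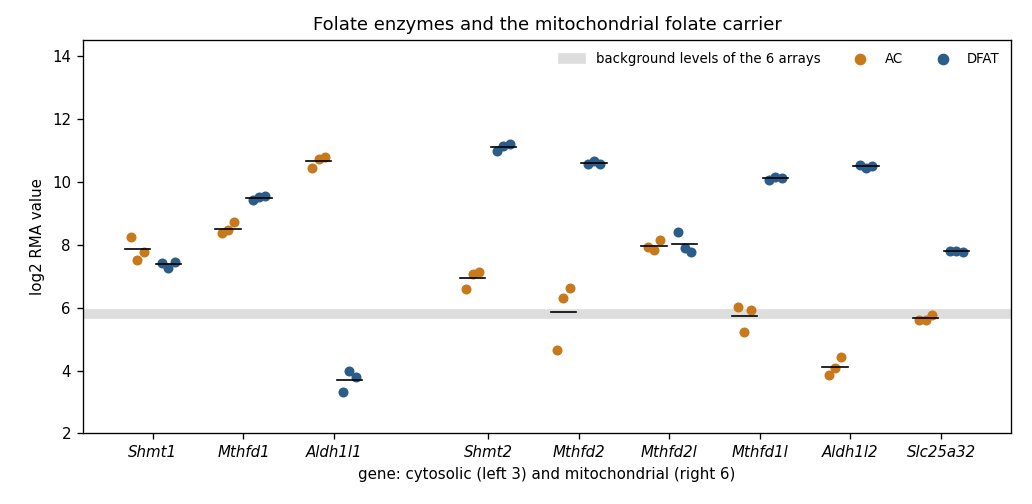
Log2 levels of folate enzymes on the 3 AC and 3 DFAT arrays, cytosolic enzymes at the left and mitochondrial ones at the right, with lines at the group means and the background levels as a grey band. For Mthfd2, Mthfd1l, Shmt2 and Aldh1l2 all 3 DFAT points lie far above the AC points of the same gene, and for cytosolic Aldh1l1 all 3 AC points lie far above the DFAT points.

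Other genes of folate metabolism, from a longer list of related genes, gave 5 higher, 3 lower and 4 that did not pass, of 12 measured. Those shares were 41.7% higher and 25% lower, beside 22.6% and 23.8% of all genes. Tyms, called higher, and Mthfs, called lower, were below background on all 6 arrays, both named after their values were seen. The formyltetrahydrofolate dehydrogenases, which turn formyl-folate into carbon dioxide and folate, had opposite patterns. Mitochondrial Aldh1l2 was at 3.87, 4.07 and 4.42 in AC, below background on every array, and at 10.52, 10.44 and 10.52 in DFAT cells. Against the background level it was at least 4.66 log2 units higher in DFAT cells, with a measured difference of 6.37 (limma adjusted p = 1.27e-07). Cytosolic Aldh1l1 was at 10.44, 10.73 and 10.79 in AC and at 3.32, 3.97 and 3.80, below background, in DFAT cells (measured difference -6.96, -4.91 against the background level, limma adjusted p = 1.81e-07). Slc25a32, the carrier of folate into mitochondria, chosen after its values were seen, was below background in AC at 5.59, 5.61 and 5.77 and at 7.81, 7.81 and 7.78 in DFAT cells (measured difference 2.14, limma adjusted p = 5.53e-06). Mthfd2l, the paralogue of Mthfd2, also chosen afterwards, had a difference of 0.05 (95% interval -0.40 to 0.50, limma adjusted p = 0.864) and overlapping groups on its representative probe set. Its other probe sets differed by 1.08, which passed (limma adjusted p = 0.000886) with AC below background, and by 0.76 and 0.72, which did not (adjusted p = 0.0541 and 0.0565).

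Within an array, the difference between paralogues does not depend on how arrays are centred. Shmt2 minus Shmt1 went from -0.91 ± 0.65 in AC to 3.72 ± 0.16 in DFAT cells (SD, n = 3), a change of 4.64, and Mthfd1l minus Mthfd1 from -2.79 ± 0.44 to 0.61 ± 0.02, a change of 3.39. In both pairs the 3 DFAT values were above the 3 AC values, the most unequal order that 3 against 3 arrays allow, with an exact two-sided permutation p = 0.1, the smallest possible, and 0.125 adjusted over 5 pairs. With the mean of all probe sets of a gene, the change of Shmt2 minus Shmt1 was 2.69.

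Both measured members of the glycine cleavage system, which splits glycine to give folate a carbon, were called lower. Gcsh, the lipoate-carrying protein, was at 10.79, 11.22 and 11.36 in AC and at 10.65, 10.58 and 10.63 in DFAT cells. Its fall of 0.50 passed narrowly (limma adjusted p = 0.0488), and it did not pass without AC replicate 2 or 3 or without any 1 of the DFAT arrays (adjusted p = 0.116 to 0.142). Gldc, the decarboxylase, was at 5.09, 5.43 and 5.59 in AC and at 4.37, 4.18 and 4.13 in DFAT cells, below background on all 6 arrays, so no fold is given.

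In the methionine cycle, Ahcy, the hydrolase that clears S-adenosylhomocysteine after methylation, rose clearly. It was at 8.48, 8.74 and 8.92 in AC and at 11.35, 11.36 and 11.43 in DFAT cells, a 6.33-fold rise (log2 2.66, 95% interval 2.31 to 3.01, limma adjusted p = 4.68e-06). Mat2b, the regulatory subunit of the S-adenosylmethionine synthetase, was at 9.28, 9.58 and 9.72 in AC and at 9.43, 9.37 and 9.43 in DFAT cells, the one member with overlapping groups. The difference was -0.12 (95% interval -0.47 to 0.23, limma adjusted p = 0.588), or 0.01 and 0.35 with arrays centred on their medians and on the hybridization controls. Among 13 related genes of this branch, 6 were higher (46.2%) and 4 lower (30.8%), beside 22.6% and 23.8% of all genes. The transsulfuration enzymes and the Ahcy-like proteins were chosen after their values were seen. Cth, which releases cysteine from cystathionine, was higher (mean 7.27 ± 0.44 in AC and 9.26 ± 0.07 in DFAT cells, SD, n = 3, limma adjusted p = 0.000207), and Cbs, which makes cystathionine, was lower and below background in DFAT cells (6.32 ± 0.31 and 4.62 ± 0.11). Ahcyl1 rose by 1.27 and Ahcyl2 fell by 2.11 on the log2 scale, but the other probe sets of Ahcyl2 (-0.59 and -0.55) did not pass.

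Asns, the synthetase that makes asparagine with glutamine as the nitrogen donor, had levels of 10.42, 10.36 and 10.26 in AC and of 11.73, 11.78 and 11.80 in DFAT cells. The arrays of each group lay close together, and Asns rose 2.68-fold (log2 difference 1.42, limma adjusted p = 5.18e-05), with 2.35 for its other probe set. Asns is known as a target of ATF4, the transcription factor of the amino acid response, which binds C/EBP-ATF response elements. The core of that element, TGATGNAA, was searched on both strands from 250 bases before to 50 bases after the annotated start, in RefSeq promoters of the GRCm38.p6 build, and 3.97% of 32851 promoters held it. Of the 23 measured members with a promoter in that table, 2 held it, Asns and Got1, and their 120-base stretches with the match are shown because both genes rose. Capitals mark the match, which lies on the gene's strand at positions -23 to -16 relative to the start of Asns (chr6:7693210-7693329, minus strand) and on the opposite strand at -102 to -95 for Got1 (chr19:43524606-43524725, minus strand).
Asns: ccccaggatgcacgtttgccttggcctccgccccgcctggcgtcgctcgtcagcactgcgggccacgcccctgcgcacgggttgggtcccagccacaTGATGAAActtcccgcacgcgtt
Got1: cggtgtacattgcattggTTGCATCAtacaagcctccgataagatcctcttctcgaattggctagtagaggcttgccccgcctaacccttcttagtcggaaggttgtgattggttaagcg
A match is a string of letters and not a measured binding site. The E-box CACGTG, which reads the same on both strands, was in 7.15% of promoters and in 1 of the 23, that of Ass1. Among the related genes measured, it was in 8 of the 52 with a promoter.

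Glutamine synthetase fell steeply and glutamate dehydrogenase rose slightly. Glul, which makes glutamine from glutamate and ammonia, was at 12.17, 12.78 and 12.66 in AC and at 8.22, 7.96 and 8.01 in DFAT cells. It fell 22.2-fold (log2 difference -4.47, 95% interval -4.91 to -4.04, limma adjusted p = 9.52e-07), stayed above background in DFAT cells, and its other probe set differed by -5.34. Glud1, which interconverts glutamate and oxoglutarate, was at 10.66, 10.91 and 10.90 in AC and at 11.25, 11.28 and 11.35 in DFAT cells. Its 1.39-fold rise (log2 difference 0.47, limma adjusted p = 0.0245) did not pass without any 1 of the DFAT arrays (adjusted p = 0.0669 to 0.0994) and was 0.04 with arrays centred on the reference genes, while its other probe set rose by 0.79.

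The aminotransferases for aspartate rose and those for alanine fell. Got1, the cytosolic aspartate aminotransferase, had levels of 6.38, 7.24 and 7.16 in AC and of 10.30, 10.48 and 10.45 in DFAT cells, an 11.2-fold rise (log2 difference 3.49, limma adjusted p = 1.18e-05). Got2, its mitochondrial counterpart, went from 8.91, 9.12 and 9.21 to 10.57, 10.85 and 10.88, a 3.21-fold rise (log2 difference 1.68, limma adjusted p = 6.41e-05). One further Got2 probe set was higher by 2.16, and the remaining ones, both at background, gave -0.08, which did not pass, and -1.08, which passed as lower. Gpt, the alanine aminotransferase of the cytosol, was at 10.91, 11.11 and 11.03 in AC and at 6.09, 6.35 and 6.32 in DFAT cells. That was a 27.2-fold fall, the largest among the representative probe sets of the members (log2 difference -4.76, 95% interval -5.09 to -4.44, limma adjusted p = 1.94e-07), though its other probe set fell by only 1.44 and that of Glul by more. Gpt2, the mitochondrial one, was at 9.40, 10.78 and 10.85 in AC and at 8.56, 8.53 and 8.54 in DFAT cells. The AC value nearest to DFAT was that of replicate 1, and Gpt2 fell 3.49-fold (log2 difference -1.80, limma adjusted p = 0.00478).

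Compared within arrays, Got2 minus Got1 narrowed from 2.16 ± 0.34 in AC to 0.36 ± 0.08 in DFAT cells, a change of -1.80, and Gpt2 minus Gpt went from -0.67 ± 0.73 to 2.29 ± 0.16 (SD, n = 3), a change of 2.96. Neither pair overlapped between groups (exact two-sided permutation p = 0.1, the smallest possible, adjusted 0.125). The Gpt pair rests on probe sets that may match related transcripts (_s_at), and without such probe sets its change was -0.23, the other direction.

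**Figure D4:**
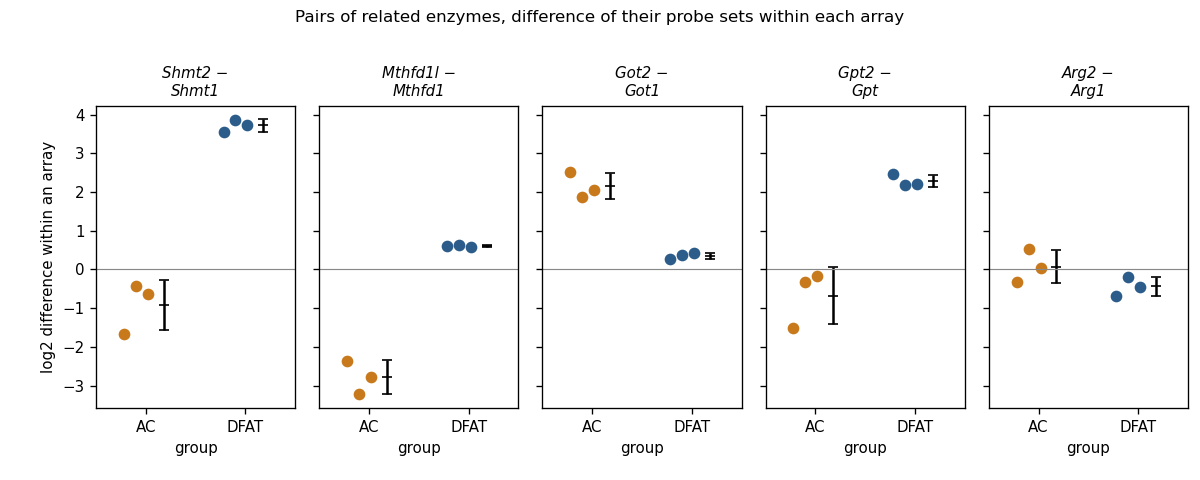
Within-array log2 difference between paralogues on the 3 AC and 3 DFAT arrays, with the group mean ± SD beside the points. The AC and DFAT points are separate for the Shmt, Mthfd1, Got and Gpt pairs and overlap for Arg2 minus Arg1.

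For proline, Prodh, which starts its breakdown in mitochondria, was at 7.71, 7.33 and 7.19 in AC and at 5.92, 6.01 and 5.91 in DFAT cells, just above background there. It fell 2.76-fold (log2 difference -1.46, limma adjusted p = 0.000226). Oat, which interconverts ornithine and the proline precursor, was at 10.61, 10.86 and 10.72 in AC and at 11.06, 11.07 and 11.09 in DFAT cells. The DFAT values were the higher ones, but the difference of 0.34 (95% interval 0.04 to 0.64) did not pass (limma adjusted p = 0.0719). It passed under 8 alternatives, at 0.34 to 0.80 (adjusted p = 0.0221 to 0.0404), among them the centrings on array medians and on the hybridization controls, and it was -0.10 with arrays centred on the reference genes. Aldh18a1, which makes that precursor from glutamate, was a related gene with one of the largest rises. Its representative probe set, of the _x_at type, went from 5.60, 5.58 and 5.83, below background, to 11.19, 11.16 and 11.22. That was 5.36 log2 units against the background level (measured difference 5.52, limma adjusted p = 8.98e-08). The other Aldh18a1 probe sets passed with smaller rises of 4.51, 4.29, 4.27 and 2.80, or 3.23, 3.29, 4.02 and 0.60 against the background level. Pycrl, which completes proline synthesis, was 1.55 higher in DFAT cells, and Aldh4a1, which completes its breakdown, 0.96 lower, both chosen after their values were seen. The Aldh4a1 difference did not pass with arrays centred on the hybridization controls (-0.50, limma adjusted p = 0.211).

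Of the 4 measured arginine members, 3 were called lower in DFAT cells and 1 higher, and several were near background. Arg2, the mitochondrial arginase, was at 6.06, 6.16 and 6.05 in AC, just above background, and at 2.57, 2.73 and 2.97, below it, in DFAT cells (measured difference -3.33, limma adjusted p = 1.25e-06). Against the background level the difference was -0.34. Arg1, the cytosolic arginase, was at 6.39, 5.64 and 6.02 in AC, above background on 2 of 3 arrays, and at 3.24, 2.92 and 3.42 in DFAT cells. Its measured difference was -2.82 (limma adjusted p = 3.03e-05) and -0.29 against the background level, where it did not pass (adjusted p = 0.270). Arg1 is also a gene of macrophages, and among AC it was highest on replicate 1, where the macrophage markers were lowest. Whether macrophages gave any of its signal was not tested. Arg2 minus Arg1 was 0.07 ± 0.43 in AC and -0.44 ± 0.24 in DFAT cells (SD, n = 3), with overlapping groups (exact two-sided permutation p = 0.2, adjusted 0.2).

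Asl, which releases arginine from argininosuccinate, fell from 8.03, 8.03 and 8.48 to 7.05, 7.16 and 7.33 (log2 difference -0.998, limma adjusted p = 0.0021). With arrays centred on the hybridization controls Asl did not pass (-0.54, adjusted p = 0.167). Ass1, which makes argininosuccinate, was called higher, but its 1 probe set annotated to it alone was below background on all 6 arrays. That probe set was at 4.07, 3.67 and 4.09 in AC and at 4.25, 4.87 and 5.24 in DFAT cells, so no fold is given. Without AC replicate 2 or 3, or DFAT replicate 2 or 3, it did not pass (limma adjusted p = 0.061 to 0.115). A probe set annotated to both Ass1 and Gm5424 was 6.15 higher in DFAT cells (limma adjusted p = 1.55e-06), and which gene gave its signal was not tested. Of 11 related arginine genes, 1 was higher (9.09%) and 3 were lower (27.3%), beside 22.6% and 23.8% of all genes. Ddah1, which breaks down methylated arginines that inhibit nitric oxide synthases, rose from 6.74, 6.27 and 6.34 to 10.86, 10.91 and 10.87 (log2 difference 4.43, limma adjusted p = 4.55e-07). Nos3, the nitric oxide synthase of endothelium, went from 10.18, 9.06 and 9.51 to 5.32, 5.20 and 4.95, below background (measured difference -4.43, limma adjusted p = 7.87e-06). Its AC values were highest on replicate 1, as was the endothelial marker mean, whose DFAT values were 4.33 to 4.38.

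In polyamine metabolism the synthetic enzymes measured rose and the acetylating enzyme fell. Odc1, ornithine decarboxylase, the entry step, was at 9.94, 10.90 and 10.87 in AC and at 11.52, 11.63 and 11.67 in DFAT cells. AC replicate 1 was the lowest array, and the gene rose 2.05-fold (log2 difference 1.04, limma adjusted p = 0.0136). Without DFAT replicate 3 Odc1 did not pass (limma adjusted p = 0.0518), and its other probe sets gave 0.55 (adjusted p = 0.0332) and 0.70 (adjusted p = 0.0658). Srm, spermidine synthase, was at 9.38, 9.60 and 9.93 in AC and at 11.31, 11.53 and 11.55 in DFAT cells, a 3.54-fold rise (log2 difference 1.83, limma adjusted p = 8.52e-05). Sat1, the acetyltransferase that marks polyamines for export and breakdown, was at 10.56, 11.42 and 11.25 in AC and at 10.37, 10.26 and 10.25 in DFAT cells. It fell 1.72-fold (log2 difference -0.79, limma adjusted p = 0.0248), and did not pass without AC replicate 2 or 3 or without any 1 of the DFAT arrays (adjusted p = 0.066 to 0.0816).

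Regulators of Odc1 were among the 10 related polyamine genes. Of these 10, 5 were higher (50%) and 1 was lower (10%), beside 22.6% and 23.8% of all genes. Azin1, the antizyme inhibitor that frees Odc1, rose by 2.35 on the log2 scale, from a mean of 9.12 ± 0.16 in AC to 11.47 ± 0.03 in DFAT cells (SD, n = 3, limma adjusted p = 5.61e-06). Oaz1, the antizyme that inhibits Odc1, was 0.48 higher (limma adjusted p = 0.017), did not pass without any 1 of the DFAT arrays (adjusted p = 0.0604 to 0.0691), and differed by 0.05 with arrays centred on the reference genes. Azin2, a further antizyme inhibitor counted with the arginine genes, was called lower, at -1.12 (limma adjusted p = 0.00642). Its other probe sets gave -0.69 (adjusted p = 0.00241) and -0.50, which did not pass. Centring by hybridization controls left -0.65, which did not pass either. Oaz2, a further antizyme, did not pass at -0.45 (limma adjusted p = 0.114). Other Oaz2 probe sets gave -0.54 (adjusted p = 0.0171) and -0.06. Smox, which oxidises spermine, had a difference of 0.24 (95% interval -0.13 to 0.61, limma adjusted p = 0.28).

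Of 12 genes of ATF4 and the amino acid response, all above background on at least 1 array, 4 were higher, 4 were lower and 4 did not pass. The shares of 33.3% higher and 33.3% lower were near the 34.4% and 29.9% of all genes above background on at least 1 array. Atf4 itself was at 11.60, 11.53 and 11.42 in AC and at 12.03, 11.99 and 12.15 in DFAT cells, 0.54 higher (limma adjusted p = 0.011), but 0.11 with arrays centred on the reference genes (adjusted p = 0.51) and not past the test without DFAT replicate 3 (adjusted p = 0.0598). Another Atf4 probe set (_x_at), above background on all 6 arrays, rose by 2.004 (limma adjusted p = 0.00537), and the remaining one, below background on all of them, differed by 0.06. Atf3, a stress-induced factor of the same family, went from 12.15, 12.12 and 12.21 to 6.25, 6.15 and 5.97, a fall of 6.04 (limma adjusted p = 7.16e-08). Trib3, a pseudokinase induced by ATF4, chosen after its values were seen, was 2.12 higher (adjusted p = 1.73e-05). The core TGATGNAA was in the promoters of Atf3, Chac1, Trib3 and Nupr1, 4 of 52 related genes searched. Myc, a factor known to act on Odc1 and on Shmt2, was at 9.69, 11.72 and 11.60 in AC and at 10.40, 10.47 and 10.53 in DFAT cells. The DFAT values lay between AC replicate 1 and the other AC arrays, the difference was -0.53 (95% interval -1.66 to 0.59, limma adjusted p = 0.432), and without AC replicate 1 it was -1.19 (adjusted p = 8.56e-05). Over all 66 measured related genes, 24 were higher (36.4%) and 19 lower (28.8%), beside 22.6% and 23.8% of all genes, with a median difference of -0.03; with arrays centred on the reference genes or the hybridization controls the split was 18 higher and 32 lower, or 25 higher and 10 lower.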

How the data were processed

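3 AC and 3 DFAT arrays of the Affymetrix GeneChip Mouse Genome design were used. The authors deposited log2 values made by RMA with the affy package; no source used here states which arrays shared that normalization. All 6 columns were used as deposited. Control probe sets (64) were left out. Genes were named by the platform annotation, in which 34945 probe sets have 1 symbol, 932 several and 9160 none. Each gene was represented by its brightest probe set on average across all 6 arrays. DFAT and AC were compared with limma 3.58.1 in R 4.3.3 (lmFit, eBayes, no covariates, two-sided), adjusted by Benjamini-Hochberg over 45037 probe sets, with a threshold of 0.05, and scripts were tested on simulated data. As background served, on each array, the 95th percentile over 110 probe sets for 83 genes that other tissues use; Odf2, Adcy3, Gnal and Rdh5 were taken off that list after values were seen, and the higher level with them is an added alternative. Intervals are 95%. Every member is named. Of the related genes, the 3 largest called differences without overlap in each direction are named, with Aldh18a1, Atf4, Azin1, Oaz1, Smox and Myc. Azin2 and Oaz2 were added after their values were seen. Members, lists and motifs were chosen with earlier results of these data known. Promoters are from RefSeq (GRCm38.p6). Tables and figures were made with Python 3.11.15, numpy 2.4.6, pandas 2.3.3 and matplotlib 3.10.9. Alternatives covered the scaling, the filter on dim probe sets, the variance model, a Student's t-test, the choice of probe set, the replicate block and leaving out each array. Lists other than those given above were lymphocyte and granulocyte, hepatocyte and red blood cell markers, of which 3 of 9, 3 of 9 and 1 of 3 were lower in DFAT cells, and the 13 reference genes, of which 8 were higher and 2 lower.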

Additional observations from a re-analysis of the deposited data

Results flagged for a closer look

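Some probe sets are annotated to a member together with a predicted gene or a pseudogene. They were tested with all probe sets but entered none of the counts per gene above. The one annotated to Ass1 and Gm5424 was at 5.09, 4.51 and 3.92 in AC and at 10.43, 10.75 and 10.80 in DFAT cells, a difference of 6.15 (limma adjusted p = 1.55e-06), whereas the probe set of Ass1 alone was below background on every array. Of the probe sets annotated to spermine synthase, Sms, and Sms-ps, the one with the larger difference was at 5.83, 5.72 and 6.05 in AC and at 9.81, 9.78 and 9.78 in DFAT cells, a difference of 3.92, and another differed by 1.88. These probe sets were singled out because they were called higher and their 3 DFAT values were above background, while they lay outside the counts per gene. A further probe set of Sms and Sms-ps, below background on all 6 arrays, differed by 1.15 (limma adjusted p = 0.00494). From which of the annotated genes the signal came was not tested. For Phgdh, the probe sets shared with Gm8096 and Gm6756 differed by -0.10, which did not pass, and by -0.37, which did (limma adjusted p = 0.0439).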

How the results depend on the processing

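With 14 members higher and 10 lower as reported, the centrings gave the splits printed above, of which 6 lower members with the hybridization controls, and 10 and 32 lower related genes with the hybridization controls and the reference genes, moved by over 1.5 times. A 4-fold rule gave 5 higher and 4 lower members and 7 higher and 5 lower related genes. Leaving out 1 array gave 11 to 14 higher and 8 to 10 lower members, and 19 to 25 higher and 16 to 21 lower related genes. Same-numbered AC and DFAT arrays did not deviate together (correlations -0.02, -0.03 and 0.01). With 3 arrays per group, this cannot tell whether the samples were paired. The replicate block gave 13 higher and 9 lower members and 23 and 18 related genes, with Gcsh (adjusted p = 0.0737) and Glud1 (adjusted p = 0.0556) not passing. A Student's t-test gave 14 higher and 11 lower members at the threshold unadjusted, and 12 and 7 after Benjamini-Hochberg. The study used that test for PCR and cell assays, whereas it compared its arrays by fold change and detection calls. The sign turned for Ass1 (-0.084 and -0.20 with the background level and the higher level as a floor, the latter chosen after seeing the data), Got2 (-1.08) and Shmt1 (0.16) with the dimmest probe set, Mat2b (0.013, array medians, and 0.35, hybridization controls), Oat (-0.10, reference genes), Phgdh (0.26, hybridization controls), Gpt2 minus Gpt (-0.23, without _x_at and _s_at) and Arg2 minus Arg1 (0.23, mean of probe sets). Other pair changes that moved were Arg2 minus Arg1 at -0.05 with the floor, Got2 minus Got1 at -2.81, Gpt2 minus Gpt at 1.43 and Shmt2 minus Shmt1 at 2.69 with the mean of probe sets, and Shmt2 minus Shmt1 at 3.61 without _x_at and _s_at. The causes were not tested. Over the member differences and the alternatives run gene by gene, 494 kept direction and side of the threshold, 40 no longer passed, 13 newly passed and 8 turned sign. The 4-fold rule and the unadjusted t-test gave counts only and are not among these. Under every alternative run gene by gene, Ahcy, Asns, Glul, Got1, Gpt, Mthfd1, Mthfd1l, Mthfd2, Prodh, Psat1, Shmt2 and Srm kept call and direction. Of these, Asns, Mthfd1, Prodh, Psat1 and Srm differed by less than 4-fold, so the 4-fold rule does not call them. Signal near background limits Gldc, Ass1, Arg1 and Arg2.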

Other observations

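Further genes of these pathways were named after their values were seen. Hypusine, made from spermidine, is placed on the translation factor Eif5a by Dhps and Dohh. Dhps rose from a mean log2 level of 7.71 ± 0.35 in AC to 8.87 ± 0.12 in DFAT cells, Dohh from 8.13 ± 0.21 to 9.16 ± 0.12 and Eif5a from 12.89 ± 0.12 to 13.40 ± 0.04 (SD, n = 3). Eif5a differed by 0.08 with arrays centred on the reference genes and did not pass without DFAT replicate 2 or 3 (limma adjusted p = 0.0561 and 0.0655). In the salvage of the methylthio group left by polyamine synthesis, Mtap (difference 1.003) and Enoph1 (1.38) were higher in DFAT cells, and Apip (-1.32) and Adi1 (-0.56) were lower, 1 of the 3 Adi1 probe sets (-0.24) not passing, nor Adi1 with arrays centred on the hybridization controls (limma adjusted p = 0.774). The other Mtap probe sets were higher by 1.89, 1.91 and 2.10, and all passed.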
